A study of Homo sapiens with 4 samples.

Results

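The S100 genes encode small calcium-binding proteins. Expression of 9 of them, S100A2, S100A3, S100A4, S100A6, S100A10, S100A11, S100A13, S100A14 and S100A16, was examined among the 28198 genes of a polysome profiling experiment in MDA-MB-231 cells, a triple-negative human breast cancer line. The 9 genes were chosen by name, because their coding sequences are very short and the family is linked to the spread of breast cancer. Earlier results of these data were known when they were chosen. All 9 were found in the table. MDA-MB-231 cells depleted of their own METTL3, the catalytic subunit of the m6A RNA methyltransferase, had been reconstituted by lentivirus with METTL3-WT or with METTL3-K177Q, a mutant in which a lysine is replaced by glutamine to mimic its acetylation. Both kinds of cells therefore share the depletion, the infection and a 5-min exposure to cycloheximide at 100 µg/mL, which holds ribosomes on the mRNA, before lysates were separated on a 10 to 50% sucrose gradient. Fractions were pooled into a sub-polysome fraction (ribosomal subunits and single ribosomes) and a polysome fraction (mRNAs with several ribosomes), and poly(A)-selected RNA of each was sequenced.

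The 4 listed libraries, 1 for each genotype and fraction, were all labelled replicate 2. The table also holds 4 value columns whose names carry the number 1, and since no listed sample matches them they were not used here. With 1 library per condition, no difference below has a replicate error, no difference was tested, and each fold compares single libraries. Levels are in FPKM, fragments per kilobase of transcript scaled to the mapped fragments of each library, which can be compared between genes because it is per length. The libraries summed to between 767949 and 1037594 FPKM. Depth was not given as counts, and low values put it at about 23400000 to 26400000 fragments per library. The limits set for those low values bound this rough estimate. Of the markers expected in the line, VIM had at least 677 FPKM in each library, CD44 at least 110 and AXL at least 158. ZEB1, also expected, had only 2.32 to 4.76 FPKM. ESR1 and PGR, the hormone receptor genes, had at most 0.012 and 0.0066 FPKM. CDH1, GATA3 and EPCAM, which were listed as absent or low, had 0.22 to 0.63, 2.83 to 4.95 and 6.20 to 9.91 FPKM. The leukocyte markers summed to at most 0.25 FPKM, and the endothelial marker PECAM1 had 0.54 to 1.81 FPKM. Where 2 values are given for a genotype below, the sub-polysome library comes first and the polysome library second. METTL3 itself had 9.39 and 38.7 FPKM with METTL3-WT and 5.07 and 29.5 FPKM with METTL3-K177Q. These transcripts include the reconstituted METTL3, and the level alone does not tell the mutant from the wild type.

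S100 proteins work as dimers whose EF-hand motifs bind calcium, after which a hydrophobic surface opens and docks onto partner proteins such as annexins, cytoskeletal proteins and enzymes. S100A10 is the exception, since it has lost calcium binding and is held in an active shape. Several members can also be secreted and act on cell-surface receptors. Most of the human genes lie in a cluster in band q21 of chromosome 1, and S100A4, also known as metastasin, is a classical factor of breast cancer spread. On a very short coding sequence only a few ribosomes fit at once, so such mRNAs sediment at the lighter end of the polysomes even when they are actively translated.

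In GENCODE 44 on GRCh38, the assembly of the hg38 build that the submitters' notes name, all 9 genes lay on the minus strand of chromosome 1 between 151982915 and 153631360. S100A10 lay at chr1:151982915-151993859 and S100A11 at chr1:152032506-152047907. The other 7 genes followed 1486691 bases further on, from S100A6 at chr1:153534599-153536244 to S100A13 at chr1:153618787-153631360. S100A3 (chr1:153547329-153549258) lay inside the span of S100A4 (chr1:153543613-153550136), but their canonical transcripts shared 0 exonic bases. The S100A13 transcript, of 477 bases, shared 225 exonic bases with ENSG00000271853, a long non-coding RNA gene on the same strand. That gene is not in the table under this name, and how reads from the shared bases were assigned is not given. Coding sequences of the canonical transcripts ran from 273 bases in S100A6 to 318 bases in S100A11, whereas the median over all genes compared below was 1320 bases. Each member but S100A14, which has 4 exons, was annotated with 3.

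The bases around the start codon are shown because this window helps set how readily a scanning ribosome begins translation. For 8 of the 9 members, each line gives 12 bases before the annotated start codon, the start codon in capitals and 6 bases after it, from the GENCODE 44 canonical transcript.
S100A6: cagccctcagccATGgcatgc
S100A4: ctgactgctgtcATGgcgtgc
S100A11: ctcagctccaacATGgcaaaa
S100A16: cgaagcagggagATGtcagac
S100A13: ctcagggtcctaATGgcagca
S100A3: cagcgagtgaggATGgccagg
S100A2: tgccacagatccATGatgtgc
S100A14: acagtgggcaccATGggacag
A favourable context has a purine at the third base before the start codon and a G directly after it. Both were present in 5 of the 9 members (S100A3, S100A4, S100A6, S100A11 and S100A14), beside 47.8% of the 10275 compared genes whose start could be read. The purine was missing in S100A2 and S100A13 only, and a purine is present there in 87.5% of genes. S100A2 also had the longest leader of the 9, with 349 bases and 4 upstream ATG triplets. S100A14 had 1 such triplet and the other 7 members had 0. Of all genes read, 37.6% had at least 1, and so did 17.7% of 429 other genes whose protein has at most 120 residues.

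S100A6, the most abundant member, and S100A13, the one with the lowest polysome to sub-polysome ratio in METTL3-K177Q cells, are shown over the whole coding sequence with start and stop codons in capitals, to make plain how little message a ribosome has to cross.
S100A6: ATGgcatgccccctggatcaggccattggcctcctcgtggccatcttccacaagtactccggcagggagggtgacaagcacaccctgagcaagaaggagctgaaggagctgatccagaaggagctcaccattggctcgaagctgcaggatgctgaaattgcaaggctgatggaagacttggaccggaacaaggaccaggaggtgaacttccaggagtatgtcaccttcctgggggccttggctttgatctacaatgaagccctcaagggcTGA
S100A13: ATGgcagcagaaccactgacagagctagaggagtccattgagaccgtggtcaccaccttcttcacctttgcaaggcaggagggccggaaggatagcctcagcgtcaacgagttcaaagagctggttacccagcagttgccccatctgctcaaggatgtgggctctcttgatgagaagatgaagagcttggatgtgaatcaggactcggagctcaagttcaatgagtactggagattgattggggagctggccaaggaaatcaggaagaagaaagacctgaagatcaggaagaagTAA
The S100A6 coding sequence has 273 bases and that of S100A13 has 297. Over the 36 pairs of members, coding sequences were 48.6% to 71.7% identical, with S100A2 and S100A4 the closest pair. The longest stretch that the canonical transcripts of any 2 members shared exactly was 17 bases. Only S100A11 has pseudogenes under its own symbol, 8 of them, and how the authors' counting divided reads among such copies is not given in the sources used here.

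S100A6, also called calcyclin, was the most abundant gene of the table in each of the 4 libraries. It stood at 41854.5 and 41472.9 FPKM with METTL3-WT and at 57978.8 and 40495.5 FPKM with METTL3-K177Q. In FPKM as given, the METTL3-K177Q sub-polysome library was thus the high one, and the other libraries lay close together. As a share of all FPKM in a library, the gene took 4.65% and 5.06% with METTL3-WT and 5.59% and 5.27% with METTL3-K177Q. By share the METTL3-WT sub-polysome library was thus the lowest. In bulk RNA, fewer cells that express a gene and less of its RNA per cell cannot be told apart. The next gene, TMSB10, ACTB, TMSB4X or CST1 depending on the library, was 1.62-fold to 4.08-fold lower.

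S100A4 was second in the group, with 3061 and 3076 FPKM with METTL3-WT and 3457 and 3091 FPKM with METTL3-K177Q. It ranked between position 21 and 44 of all genes. S100A11 (calgizzarin) had 1947 and 2493 FPKM with METTL3-WT and 2306 and 2656 FPKM with METTL3-K177Q, so that in FPKM as given its polysome value was the higher one in both genotypes. As shares of the library total, S100A4 and S100A10 were also higher in polysomes in both genotypes. S100A10 (p11), the light chain of the annexin A2 tetramer, had 1972 and 1998 FPKM with METTL3-WT and 2175 and 1965 FPKM with METTL3-K177Q, a narrow range. S100A11 and S100A10 changed places between libraries, with S100A10 ahead only in the METTL3-WT sub-polysome library.

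S100A16, a widely expressed member, and S100A13, which takes part in the release of the leaderless growth factor FGF1, were in a middle range and were both higher in the sub-polysome fraction. S100A16 had 710 and 423 FPKM with METTL3-WT and 866 and 444 FPKM with METTL3-K177Q. S100A13 had 632 and 434 FPKM with METTL3-WT and 737 and 341 FPKM with METTL3-K177Q. These neighbours kept the same order in 3 libraries and exchanged it in the METTL3-WT polysome library.

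S100A3, known best from the hair cuticle, had 102 and 76.7 FPKM with METTL3-WT and 100.02 and 75.7 FPKM with METTL3-K177Q, so the genotypes were nearly equal in both fractions in FPKM as given. S100A2, a nuclear member described as a p53 target, had 65.03 and 49.5 FPKM with METTL3-WT and 75.4 and 37.8 FPKM with METTL3-K177Q. S100A14, an epithelial member, had 0.54 FPKM, 0.39 FPKM, 0.52 FPKM and 0.24 FPKM in the same order, which corresponds to roughly 6 to 15 fragments per library. It was the only member under the minimum mean of 1 FPKM that was set for ratios, so 8 of the 9 genes entered the comparisons below, among 10905 genes in all. Of the order of levels, only S100A6 first, S100A4 second, and S100A3, S100A2 and S100A14 last held in all 4 libraries.

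**Figure D1:**
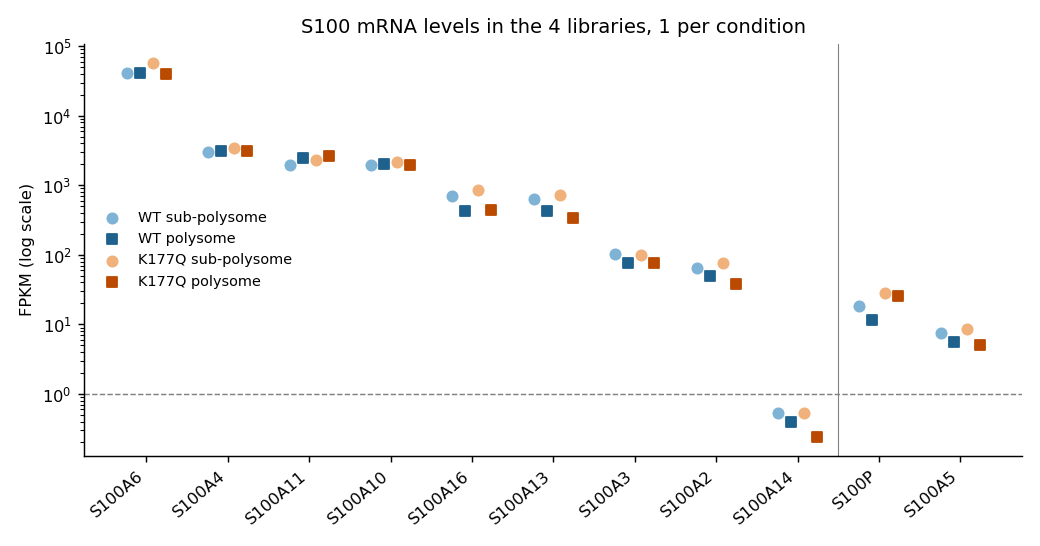
FPKM (log axis) of the 9 members, and right of the vertical line of 2 further S100 genes that passed the minimum, with 1 point per library and no error bars; the dashed line marks 1 FPKM. S100A6 lies more than 10-fold above S100A4 in each library, and S100A14 is the only member below the line.

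The rest of the family was mostly silent. Of 11 further S100 genes in the table, S100A7A, S100A8, S100A12 and S100A7, which belong to the epidermal and myeloid members, were listed at 0 in all 4 libraries. S100A9 was listed at 0 in 3 libraries and S100B, a glial marker, also in 3. S100A1, S100G and S100Z had at most 0.63 FPKM in any library. Only S100A5 and S100P passed the minimum. S100A5, the neighbour between S100A6 and S100A4, had 7.53 and 5.58 FPKM with METTL3-WT and 8.51 and 5.09 FPKM with METTL3-K177Q. S100P, a member encoded on chromosome 4 and linked to metastasis, had 18.5 and 11.7 FPKM with METTL3-WT and 28.4 and 25.5 FPKM with METTL3-K177Q. It was higher in METTL3-K177Q cells in both fractions.

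The first question was how the polysome level of each S100 mRNA compared with its sub-polysome level in METTL3-WT cells. Each library is scaled on its own, so a ratio of 1 does not mean equal amounts of an mRNA in both fractions. Translation efficiency here means the polysome value over the sub-polysome value, with 0.1 FPKM added to each. It was 1.28 for S100A11, close to 1 for S100A10 (1.013), S100A4 (1.005) and S100A6 (0.991), and lower for S100A2 (0.76), S100A3 (0.76), S100A13 (0.69) and S100A16 (0.60). The 4 most abundant members thus had the 4 highest ratios. The median of the 8 genes was 0.87, and that of all 10905 genes was 1.11. The study sets 1.5-fold for translation efficiency between genotypes, and the same fold was applied here within a genotype. By it, 28.1% of all genes were higher and 19.1% lower in polysomes, whereas 0 of the 8 members were higher and 1, S100A16, was lower. These ratios depend on the FPKM totals, which differed between libraries. With each library rescaled to the same total (TPM), S100A6, S100A4, S100A10 and S100A11 were all above 1, at 1.09 to 1.41, and the median was 0.95 for the members and 1.21 for all genes. S100A16 was again the only member called, at 0.65.

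Against genes of similar coding length the members stood in the upper part. There were 429 other genes above the minimum whose protein has at most 120 residues, and their median translation efficiency in METTL3-WT cells was 0.60. Of the 8 members, 7 lay above it, and S100A16 lay just below at percentile 49.9 of that class. S100A11 was at percentile 91.8, S100A10 at 80.7, S100A4 at 80.4 and S100A6 at 79.0. Of the class, 56.9% were at least 1.5-fold lower in polysomes. Leaving out the ribosomal protein genes changed little, with a class median of 0.62 over 411 genes and S100A11 at percentile 91.5. Across all genes the median ratio went up with coding length, from 0.61 over the 437 genes whose protein has at most 120 residues to 1.28 over the 1973 genes whose coding sequence has more than 2400 bases.

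**Figure D2:**
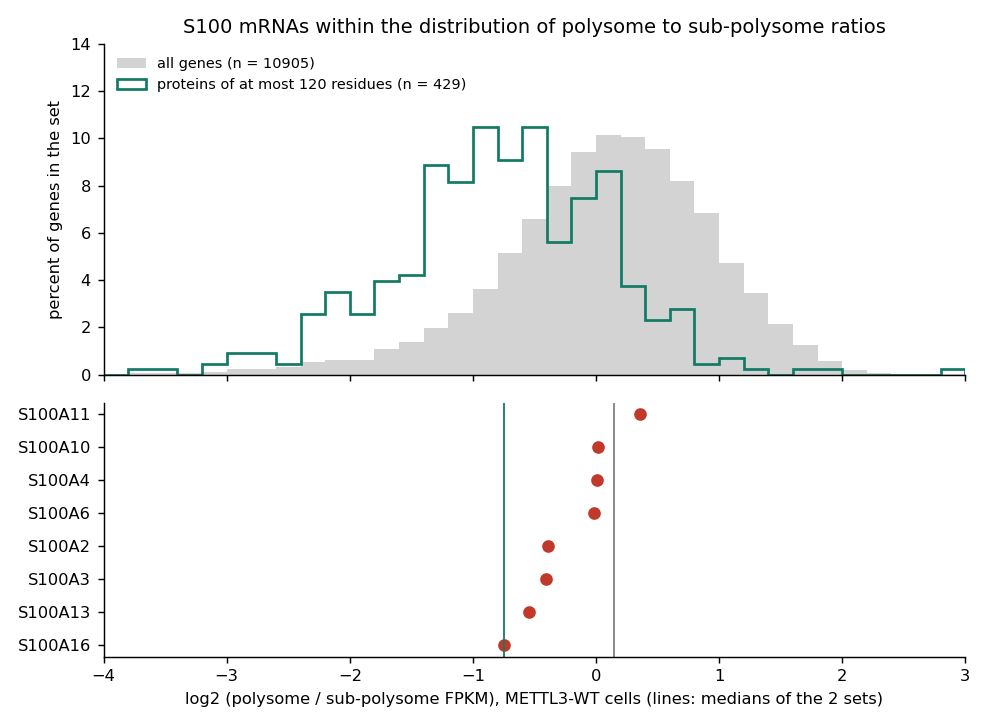
Log2 ratio of polysome to sub-polysome FPKM in METTL3-WT cells, as the percentage of genes per bin of 0.2 for all genes (grey) and for genes of short proteins (green), with values outside -4 to 3 not drawn, and below it the ratios of the 8 S100 mRNAs, 1 library pair each, with the medians of both sets as lines. All 8 but S100A16 lie right of the median of the short class (-0.75), and only S100A11 lies right of the median of all genes (0.14).

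In METTL3-K177Q cells the same ratio was 1.15 for S100A11, 0.90 for S100A10, 0.89 for S100A4, 0.76 for S100A3, 0.70 for S100A6, 0.51 for S100A16, 0.50 for S100A2 and 0.46 for S100A13. S100A11 stayed highest and was the only member above 1 in FPKM as given. With TPM, S100A10 (1.22), S100A4 (1.21) and S100A3 (1.02) were above 1 as well, and S100A11 had 1.56. The median of the members was 0.73 and that of all genes 1.12. S100A2, S100A13 and S100A16 were at least 1.5-fold lower in polysomes, 3 of 8, beside 21.3% of all genes, and 0 were higher, beside 30.2%. With TPM only S100A13 was lower, at 0.62, beside 12.6% of all genes, while S100A2 (0.68) and S100A16 (0.69) fell inside the threshold, and S100A11 was higher, beside 50.2%. The short class had a median of 0.49, above which lay 7 of the 8 members again, S100A13 being at percentile 46.6.

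**Figure D3:**
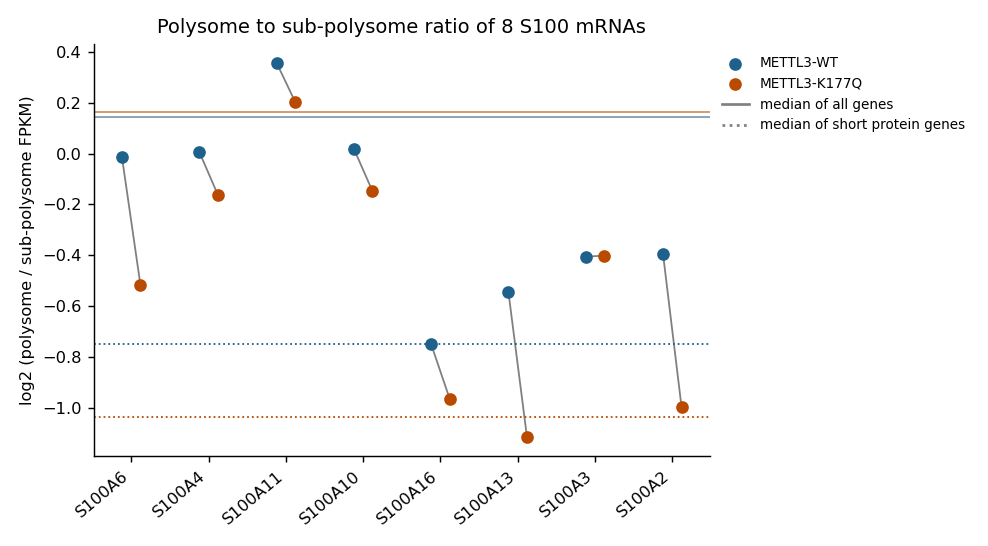
Log2 ratio of polysome to sub-polysome FPKM of the 8 S100 mRNAs in METTL3-WT (blue) and METTL3-K177Q (orange) cells, each from 1 library pair with no error bar; solid lines are medians of all genes and dotted lines medians of genes of short proteins. In these unscaled values S100A6, S100A13 and S100A2 have the steepest lines, and that of S100A3 is flat.

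The second question was how the mutant differed from the wild type. Because each library is scaled on its own, a shift of all mRNAs between the fractions would not show in these ratios. The study reports a higher polysome peak in METTL3-K177Q cells. The log2 ratio of translation efficiency, METTL3-K177Q to METTL3-WT, was below 0 for 7 of 8 members as given and for 3 of 8 after rescaling to equal totals, with a median of -0.19 as given, beside -0.01 for all genes. It was -0.60 for S100A2, -0.57 for S100A13 and -0.50 for S100A6, which lay at percentiles 6.58, 7.38 and 9.54 of all genes. The other values were -0.21 for S100A16, -0.17 for S100A4, -0.17 for S100A10, -0.15 for S100A11 and 0.004 for S100A3, between percentiles 28.2 and 51.4. One member, S100A2, was at least 1.5-fold lower, or 12.5% of 8, and 7.03% of all genes were; 0 were higher, beside 4.08%. With TPM the balance over all genes turned, with 18.6% higher and 2.83% lower, and 0 members were called in either direction. S100A2 lay just past the threshold of 0.58 on the log2 scale and S100A13 just inside it. From the estimated fragments, the counting standard error of the log2 ratio was 0.080 for S100A2 and 0.038 for S100A13. Neither can therefore be placed firmly on a side. Both lack the purine before the start codon. At least 1.5-fold lower were 6.21% of all genes without that purine and 5.44% of those with it. In the short class the shares were 18.8% and 18.9%. A link to the start window was not tested.

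The direction of the smaller ratios depended on how the libraries were scaled, as that of the polysome to sub-polysome ratios did. With TPM, the median of all genes moved from -0.01 to 0.29, and S100A4, S100A10, S100A11 and S100A16 turned to values above 0. S100A2, S100A13 and S100A6 stayed below 0 at -0.30, -0.27 and -0.21. Relative to all genes the median of the members was lower by 0.18 in the values as given, and 7 of the 8 lay below the median of all genes. TPM gave the same 0.18 and 7 of 8, which it could hardly change, since a rescaling shifts every gene about equally. The 1169 abundant genes outside the group, those averaging 100 FPKM or more, had a median of -0.26, below the -0.19 of the members, and 129 of them were at least 1.5-fold lower. With a minimum of 10 FPKM for all genes, the members' median was lower than that of all genes by 0.11.

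S100A2, S100A13 and S100A6 reached similar ratios in different ways. For S100A6 the polysome level was nearly equal between genotypes (log2 ratio -0.03) and the sub-polysome level was 1.39-fold higher in METTL3-K177Q cells, at percentile 93.5 of all genes. For S100A2 and S100A13 the sub-polysome level was higher (0.21 and 0.22 on the log2 scale) and the polysome level was lower (-0.39 and -0.35, percentiles 8.23 and 10.2). With TPM the sub-polysome levels of this pair were nearly equal between genotypes, at 0.0083 and 0.014, and the polysome log2 ratios were -0.30 and -0.26. S100A4, S100A10, S100A11 and S100A16 had sub-polysome log2 ratios of 0.14 to 0.29 with polysome log2 ratios between -0.02 and 0.09. S100A3 had -0.02 in both fractions, and -0.23 in the sub-polysome and 0.074 in the polysome fraction with TPM. The sub-polysome log2 ratio was above 0 for 7 of 8 members as given and for 5 of 8 with TPM, where S100A6 had 0.26, S100A4 -0.03 and S100A10 -0.06.

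No member was 1.5-fold changed in a single fraction. In the sub-polysome fraction the count was 0 of 8, beside 6.95% of all genes, and in the polysome fraction it was 0 of 8, beside 5.25%. The sub-polysome median of the members was 0.22 and their polysome median -0.02, beside -0.0039 and -0.023 over all genes. In FPKM as given, the sub-polysome median was also above 0 in the sets most like the members. It was 0.13 in the short class, 0.16 in the abundant genes outside the group and 0.23 in the ribosomal protein genes. As a share of all FPKM, S100A6 was 4.65% of the METTL3-WT and 5.59% of the METTL3-K177Q sub-polysome library, and 5.06% and 5.27% of the polysome libraries. The FPKM of the sub-polysome library summed to 138044 more with METTL3-K177Q than with METTL3-WT. S100A6 made up 11.7% of that difference and the ribosomal protein genes 28.2%. Since each library is scaled on its own, the difference is not one in amount of RNA.

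**Figure D4:**
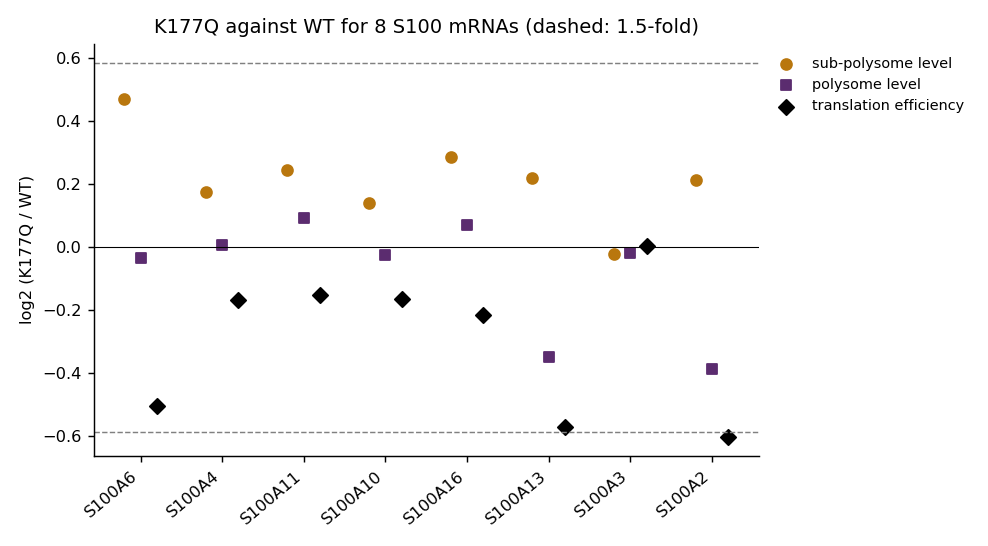
Log2 difference between METTL3-K177Q and METTL3-WT (mutant over wild type) for the sub-polysome level, the polysome level and the translation efficiency of the 8 S100 mRNAs, from 1 library per condition with no error bars; dashed lines mark 1.5-fold. Sub-polysome points lie above 0 for all but S100A3 (for 5 of 8 with TPM), and the translation efficiency of S100A2 is the only point past a dashed line.

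Between genotypes the log2 translation efficiency ratio of the short class had its median at -0.32, and 82 of its 429 genes (19.1%) were at least 1.5-fold lower in the mutant cells and 9 higher. Within it S100A2, S100A13 and S100A6 lay at percentiles 17.2, 19.8 and 24.0, and S100A3 at 83.2. The members' median of -0.19 was higher than that of the class. The 79 cytosolic ribosomal protein genes, a group of short and abundant mRNAs, had a median of -0.65, with 53 at least 1.5-fold lower. Of the 8 S100 mRNAs none was as low as this median. These values are in FPKM as given. With TPM the median moved to -0.021 for the short class and to -0.35 for the ribosomal protein genes. Calls with TPM were not counted for these sets.

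The S100 proteins act through partners, and 17 of 19 listed partners and receptors passed the minimum. Their median log2 translation efficiency ratio between genotypes was -0.0014, with 0 at least 1.5-fold higher and 1 lower. That gene was AGER, the receptor RAGE, at a log2 ratio near -1, but it had only 0.54 to 1.57 FPKM and a counting standard error of 0.51. EZR (ezrin), which links membrane and actin, had the highest ratio, 0.37. ANXA2, the partner of S100A10, had 724 and 2009 FPKM with METTL3-WT and 841 and 2001 FPKM with METTL3-K177Q. Its translation efficiency was 2.77 and 2.38, whereas that of S100A10 was 1.013 and 0.90. AHNAK, a giant scaffold bound by the S100A10 and annexin A2 complex, had a log2 ratio of -0.39 between genotypes. MYH9, the non-muscle myosin heavy chain bound by S100A4, had a value close to 0. CACYBP, the calcyclin-binding protein and partner of S100A6, had 0.10. FGF1, released with S100A13, stayed below the minimum at 0.38 to 1.13 FPKM.

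Among 24 listed EF-hand proteins outside the family, 23 passed the minimum, with a median log2 ratio between genotypes of -0.11 and 0 at least 1.5-fold changed. The calmodulin genes CALM2 and CALM3 had -0.13 and -0.15, close to the -0.15 of S100A11. The lowest value was that of MYL6, a myosin light chain, at -0.42, and the highest that of PLS3 (plastin 3) at 0.39. In METTL3-WT cells the median translation efficiency of these genes was 1.31, higher than the 0.87 of the S100 members, and their median coding sequence of 576 bases was longer.

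S100P and S100A5 passed the minimum outside the 9 genes. S100P lay above all 8 members, at a log2 translation efficiency ratio of 0.50, with a polysome log2 ratio of 1.12 and a sub-polysome log2 ratio of 0.61, both over 1.5-fold, at percentile 93.7 of all genes for translation efficiency. Its counting standard error was 0.19. S100A5 lay within the range of the members at -0.30, with a counting standard error of 0.26.

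The genes whose pattern over the 4 libraries was most like the median profile of the 8 members were ALKBH6, SAMD1, LAMTOR2, ECI1 and PTRHD1. They were found among 5370 genes outside the family with a mean of at least 10 FPKM, by Euclidean distance of centred log2 values, and lay 0.033 to 0.061 from it. The pattern is a common one, since 908 genes lay closer to the profile than the median member did, at 0.36. With 4 libraries, likeness of this kind describes only these libraries.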

How the data were processed

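RNA-seq of gradient fractions was taken from 4 libraries, 1 sub-polysome and 1 polysome library each for METTL3-WT and METTL3-K177Q cells. The deposited values are FPKM per gene, made by the authors. Their processing notes name STAR 2.7, StringTie 2.1.5 and hg38, while annotation, strand setting and filters are not given in the sources used here. The table has 4 other value columns, named with the number 1 where those used have 2. They match none of the listed samples and were not used.

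Translation efficiency was polysome over sub-polysome FPKM after adding 0.1 to each, on the log2 scale, so folds of low genes are understated. A mean of 1 FPKM or more was required of a gene, and 1.5-fold was the threshold. No test between conditions was made. Members and lists were chosen with earlier results of these data known. The text names the 9 members, other S100 genes, listed partners and EF-hand genes, METTL3, and the 5 genes nearest in pattern. TMSB10, ACTB, TMSB4X and CST1 were named after their values were seen. Some listed partners are named by rule as the highest and lowest of their list.

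Positions, coding lengths and start windows are those of GENCODE 44 canonical transcripts on GRCh38, and the authors' annotation may differ. Protein length was taken from the coding length, since no protein table was used here, and was found for 94.5% of kept genes. Depth was approximated by taking the lowest cluster of FPKM multiplied by transcript length (0.025 to 0.055) as 1 fragment, with limits set after seeing the values. These limits bound the estimate, so the likeness of depth between libraries follows in part from them. Counting errors rest on it and cover counting only. The start window of 1 member and the value of 1 listed EF-hand gene are not reported here. The calculation was tested on simulated data. Python 3.11.15, numpy 2.4.6, pandas 2.3.3, Biopython 1.88 and matplotlib 3.10.9 were used. Alternatives were other pseudocounts, filters, scalings and a 2-fold threshold.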

Additional observations from a re-analysis of the deposited data

Results flagged for a closer look

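For S100A4 and S100A10 the log2 ratio of polysome to sub-polysome FPKM had opposite signs in the 2 genotypes. S100A4 had 0.0071 in METTL3-WT and -0.16 in METTL3-K177Q cells, and S100A10 had 0.019 and -0.15. Both values in METTL3-WT cells were close to 0. The change of sign was not seen with TPM, where S100A4 had 0.14 and 0.27 and S100A10 had 0.15 and 0.29, above 0 in both genotypes. Each genotype has 1 library pair, and the difference was not tested.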

How the results depend on the processing

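No paired analysis was possible because each condition has a single library and none was left out for the same reason. With no replicate spread, a value is called moved where it changed by 0.1 or more on the log2 scale.

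With TPM, the median log2 translation efficiency ratio of the members turned to 0.11 and that of the whole S100 family to 0.11, of the partners to 0.30 and of the EF-hand genes to 0.19, while the short class moved to -0.021 and the ribosomal protein genes to -0.35. The members' polysome ratio turned to 0.071, their sub-polysome ratio was 0.011, and their translation efficiency was -0.068 in METTL3-WT and -0.025 in METTL3-K177Q cells. Of the members 0 were called, beside 18.6% of all genes higher and 2.83% lower. S100A4 turned to 0.13, S100A10 to 0.13, S100A11 to 0.15 and S100A16 to 0.084.

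With equal totals without ribosomal protein genes, the medians were 0.046 for members and for the family, 0.24 for partners, 0.13 for EF-hand genes, -0.078 for the short class and -0.41 for ribosomal protein genes. The members' polysome and sub-polysome ratios were 0.016 and 0.017, and their translation efficiency in METTL3-K177Q cells was -0.25. Of the members 0 were called, beside 13.9% of all genes higher and 3.13% lower. S100A4 turned to 0.069, S100A10 to 0.072, S100A11 to 0.084 and S100A16 to 0.023.

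With size factors, S100A3 turned to -0.013 and translation efficiency in METTL3-K177Q cells was -0.57. S100A2 and S100A13 were called lower, 2 of 8 members, beside 7.42% of all genes lower and 3.72% higher. Centring turned the members' polysome ratio to 0.0011 and the partners to 0.0081, and gave -0.35 and -0.62 for translation efficiency in METTL3-WT and METTL3-K177Q cells. Without a filter, translation efficiency in METTL3-WT cells was -0.38, as S100A14 enters. The 2-fold threshold left 0 members called, and the share of all genes past it was not calculated. S100A2, S100A6 and S100A13 stayed below 0 with TPM and with equal totals, at -0.36, -0.27 and -0.33 with the latter. The other settings changed these values by less than 0.1, and the filters could not change a gene's own ratio. By construction, a rescaling shifts every gene about equally, by 0.30 for TPM and 0.23 for equal totals. The depth limits S100A14 most.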
